A study of Homo sapiens with 8 samples.

Results

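The BCL2 family controls whether the outer membrane of the mitochondrion is opened during apoptosis. Described here are 10 of its genes, taken as every probe set whose annotation gave 1 of their symbols. BCL2, BCL2L1, MCL1 and BCL2A1 are the anti-apoptotic members, BAX and BAK1 form the pore, BID, BCL2L11 and PMAIP1 are BH3-only members, and BNIP3L is a related receptor on the mitochondrion. They were covered by 24 of the 22215 probe sets tested, or 10 of 11963 named genes. MCL1 had 5 probe sets, BCL2 had 4 and BCL2L1 had 3, while BAX, BID, BCL2L11, PMAIP1 and BNIP3L had 2 each and BCL2A1 and BAK1 had 1 each. None of the 24 was annotated with a second symbol.

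Anti-apoptotic members bind and restrain BAX, BAK1 and the BH3-only proteins. BH3-only proteins are made or activated under stress, occupy the anti-apoptotic members and in part activate BAX and BAK1 directly, after which cytochrome c leaves the mitochondrion and caspases are activated. In myeloid leukemia the balance differs between cells, and several depend on MCL1, whose transcript and protein turn over quickly.

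The study asked how a non-steroidal anti-inflammatory drug, diclofenac, acts on human leukemia cell lines, with apoptosis, differentiation and the transcription factor AP-1 named in its title. Total RNA of 4 groups was hybridised to Affymetrix HU-133A arrays, 2 arrays per group, titled as biological replicates. HL-60 is an established promyelocytic line and THP-1 an established monocytic one. The groups were HL-60 with DMSO, the solvent; HL-60 with 100 µM diclofenac; THP-1 with DMSO; and THP-1 with 100 µM diclofenac, all for 48 h in medium with serum. The labels give 1 dose, 1 time and no further detail of how cultures were separated, so p-values measure the spread between these arrays. Values were taken from bulk RNA, so that fewer cells of a kind and less RNA per cell cannot be told apart.

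The deposited intensities had medians of 109.6 to 241.2 per array, and an array's background was set at percentile 95 of its 27 probe sets for bacterial genes. It was 239 on THP-1 DMSO replicate 2 and 33.2 to 60.2 on the other 7 arrays. This array also correlated less with its replicate (0.898, against 0.977 to 0.984 for the other pairs), so THP-1 values that leaving it out turns in sign or moves by over 1.5 times are given both ways. Leaving it out leaves 1 THP-1 DMSO array, which is then assumed to vary like the other groups, so an adjusted p without it carries no spread of that group's own. Of the 24 probe sets, 22 were above background on 4 or more arrays and 14 on all 8. The exceptions were BCL2 207005_s_at (1 array) and BCL2 203684_s_at (3 arrays). Of the granulocyte markers ELANE, PRTN3, AZU1 and CTSG were above background on all 8 arrays. MPO was not above background on either HL-60 DMSO array (intensities 41.7 and 40.6) and stood at 201.4 and 235.6 on the THP-1 DMSO arrays, the second below its background. Under DMSO AZU1 (2.47 log2 units), PRTN3 (1.66) and ELANE (0.28) were higher on the arrays labelled THP-1 and CTSG (-0.35) was lower, each called by limma. MPO was also higher there but not called, so 4 of the 5 markers of the HL-60 label went against it, 3 of them called. Of the monocyte markers LYZ was bright in both lines, while CD14 was above background on 3 arrays, all labelled THP-1. CSF1R was higher on the arrays so labelled by 1.24 under DMSO (limma adjusted p = 0.045). Its THP-1 DMSO intensities were 252.2 on replicate 1 and 426.3 on replicate 2. The call was not kept without THP-1 DMSO replicate 2, where the largest difference of a monocyte marker was 1.17. ITGAM, FCGR1A and CD163 were not called. Only 3 of the 6 matched monocyte markers were higher under DMSO on the arrays labelled THP-1 (median 0.21), also 3 without THP-1 DMSO replicate 2. With diclofenac 5 of the 6 were. The lines are named here as labelled, and every difference between them takes its sign from those labels. The 11 matched markers of T, B, erythroid and epithelial or fibroblast cells had intensities between 3.5 and 495, with HBB and COL1A1 above background on all 8 arrays and ALAS2 on 0.

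Promoter sequence was set beside the values because the study names a transcription factor. RefSeq (GRCh38.p14) windows of 250 bases upstream of a start were matched for 8 members, in 13 windows. No window of MCL1 or BNIP3L was among them, so the promoters of these genes were not searched. The 13 windows were searched on both strands for the AP-1 site TGANTCA, the cyclic AMP response core TGACGT and the ATF4 element TGATGNAA. These letters do not overlap each other in the sites found. The promoters of BCL2A1 and PMAIP1 are shown because they were the only ones of the 8 with any of the 3 motifs, printed 5′ to 3′ on the gene's strand with the matching site in capitals. The BCL2A1 window lies on the minus strand at chr15:79971197-79971446, has 38.8% G and C, and holds 1 ATF4 element 63 to 56 bases before the start. The PMAIP1 window lies on the plus strand at chr18:59899746-59899995, has 72.8% G and C, and holds 1 cyclic AMP response core, read on the other strand as ACGTCA, 56 to 51 bases before the start.
BCL2A1: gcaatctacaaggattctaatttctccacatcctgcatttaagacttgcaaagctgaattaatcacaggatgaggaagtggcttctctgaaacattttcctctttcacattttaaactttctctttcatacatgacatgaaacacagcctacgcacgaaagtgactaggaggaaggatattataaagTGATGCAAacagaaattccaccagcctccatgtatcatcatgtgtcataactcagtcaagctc
PMAIP1: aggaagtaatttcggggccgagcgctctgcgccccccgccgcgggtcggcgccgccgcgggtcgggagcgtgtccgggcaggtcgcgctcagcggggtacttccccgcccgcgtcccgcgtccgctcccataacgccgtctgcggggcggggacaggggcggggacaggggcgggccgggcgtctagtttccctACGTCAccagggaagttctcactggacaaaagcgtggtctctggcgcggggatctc
Over all 35116 windows of the same length, 3.14% held the ATF4 element, 7.1% the cyclic AMP response core and 6.57% the AP-1 site, and their median G and C content was 58%. These matches are letters in a window, and no binding was measured.

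The first comparison was diclofenac against DMSO within each line. In THP-1, 1 probe set each of BCL2A1 and MCL1 rose, and no member fell. In HL-60 no member passed the test. PMAIP1 had higher values with diclofenac on every array of both lines without passing. Differences are in log2 units of quantile-normalized intensity, with the moderated standard error (SE) of limma, and a probe set was called at an adjusted p under 0.05 over all 22215.

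In HL-60, 0 of the 24 probe sets were called by limma, against 0.0045% of all probe sets. An unadjusted p under 0.05 was found there for 3 members and for 1001 of all 22215 probe sets. The members' median change in HL-60 was 0.05, with 0.00 for all probe sets. In THP-1, 2 of 24 were called, both upward, where 0.135% of all probe sets were called. There 6 members and 2365 of all 22215 probe sets had an unadjusted p under 0.05. The members' median change in THP-1 was 0.41, against -0.02 for all probe sets, and 17 of 24 were above 0. Without THP-1 DMSO replicate 2 this median was 0.16 and 16 of 24 were above 0. Arrays of the groups did not overlap for 10 members in HL-60, where 39.3% of all probe sets did so, and for 13 in THP-1, where the background was 39.5%. The difference of the diclofenac effect between the lines was called for 0 of 24 members by limma, and for 0.0045% of all probe sets. For that difference 3 members and 1545 of all 22215 probe sets had an unadjusted p under 0.05. When both lines were averaged, BCL2A1 alone of the members was called, at 0.64 ± 0.08 (adjusted p = 0.037), where 0.099% of all probe sets were; this contrast was added after values had been seen.

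**Figure D1:**
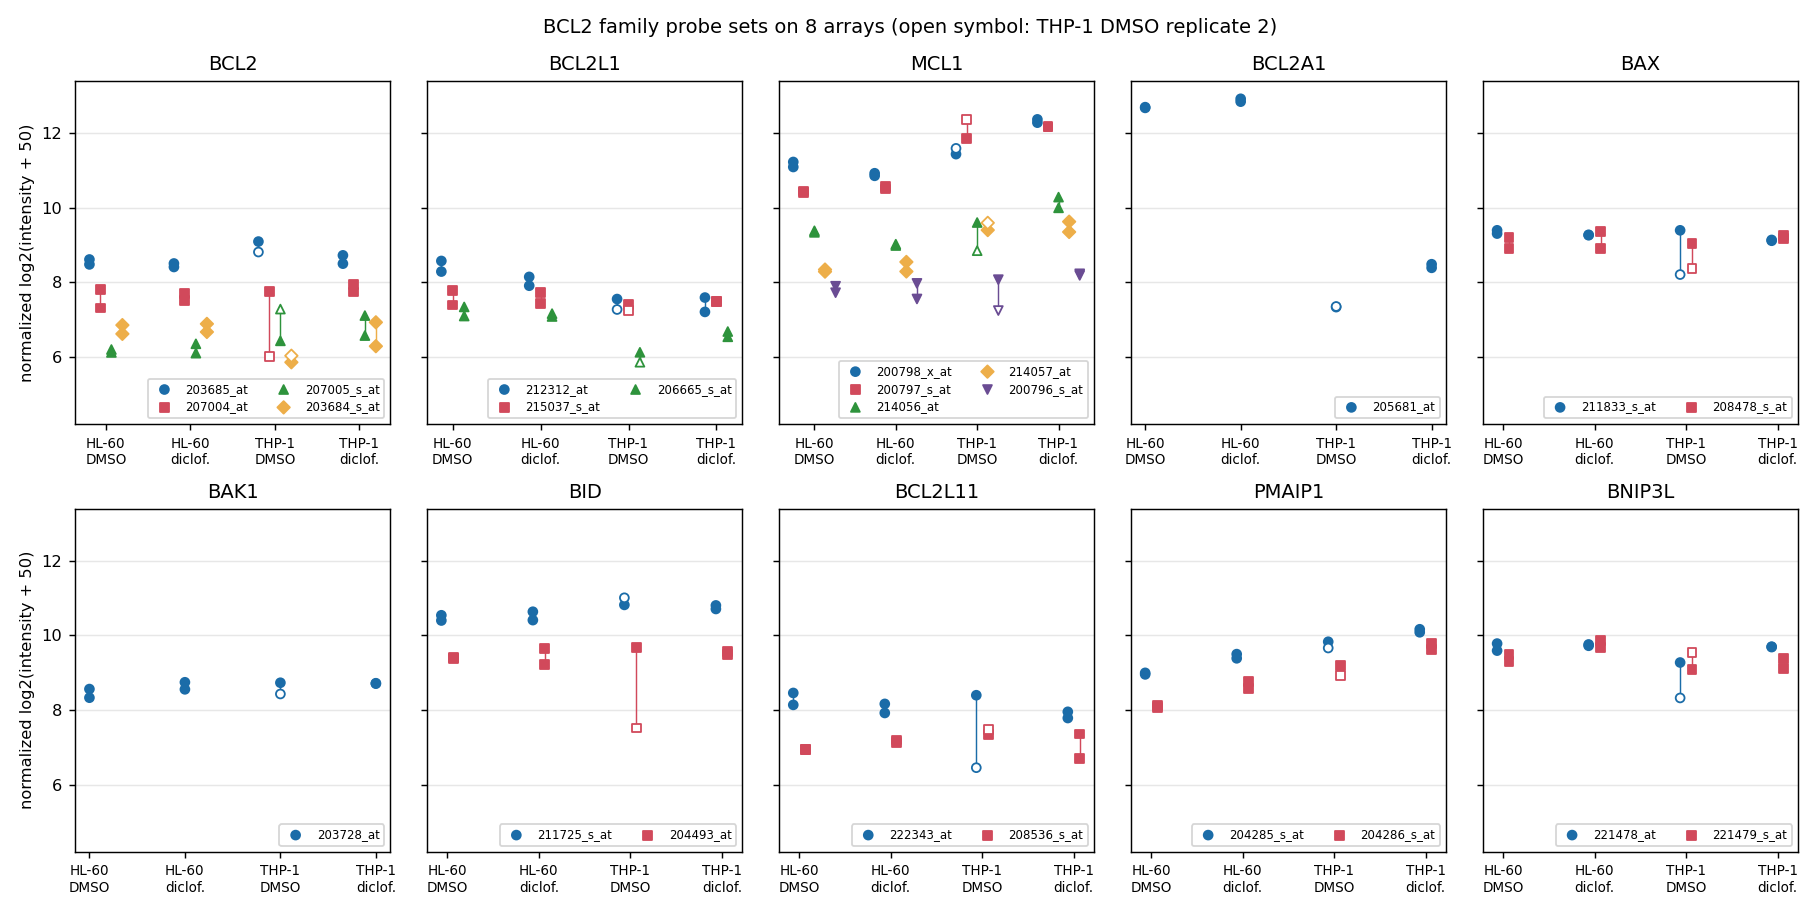
Normalized log2(intensity + 50) of each of the 24 probe sets (vertical axis) on the 2 arrays of each group (horizontal axis), 1 panel per gene, with a line joining the arrays of a group and THP-1 DMSO replicate 2 open. Levels of different probe sets cannot be ranked against each other; BCL2A1 lies between 12.68 and 12.92 in HL-60 and between 7.34 and 8.49 in THP-1, and several probe sets, such as BID 204493_at (7.52) and BCL2L11 222343_at (6.45), have their lowest value on the open symbol.

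**Figure D2:**
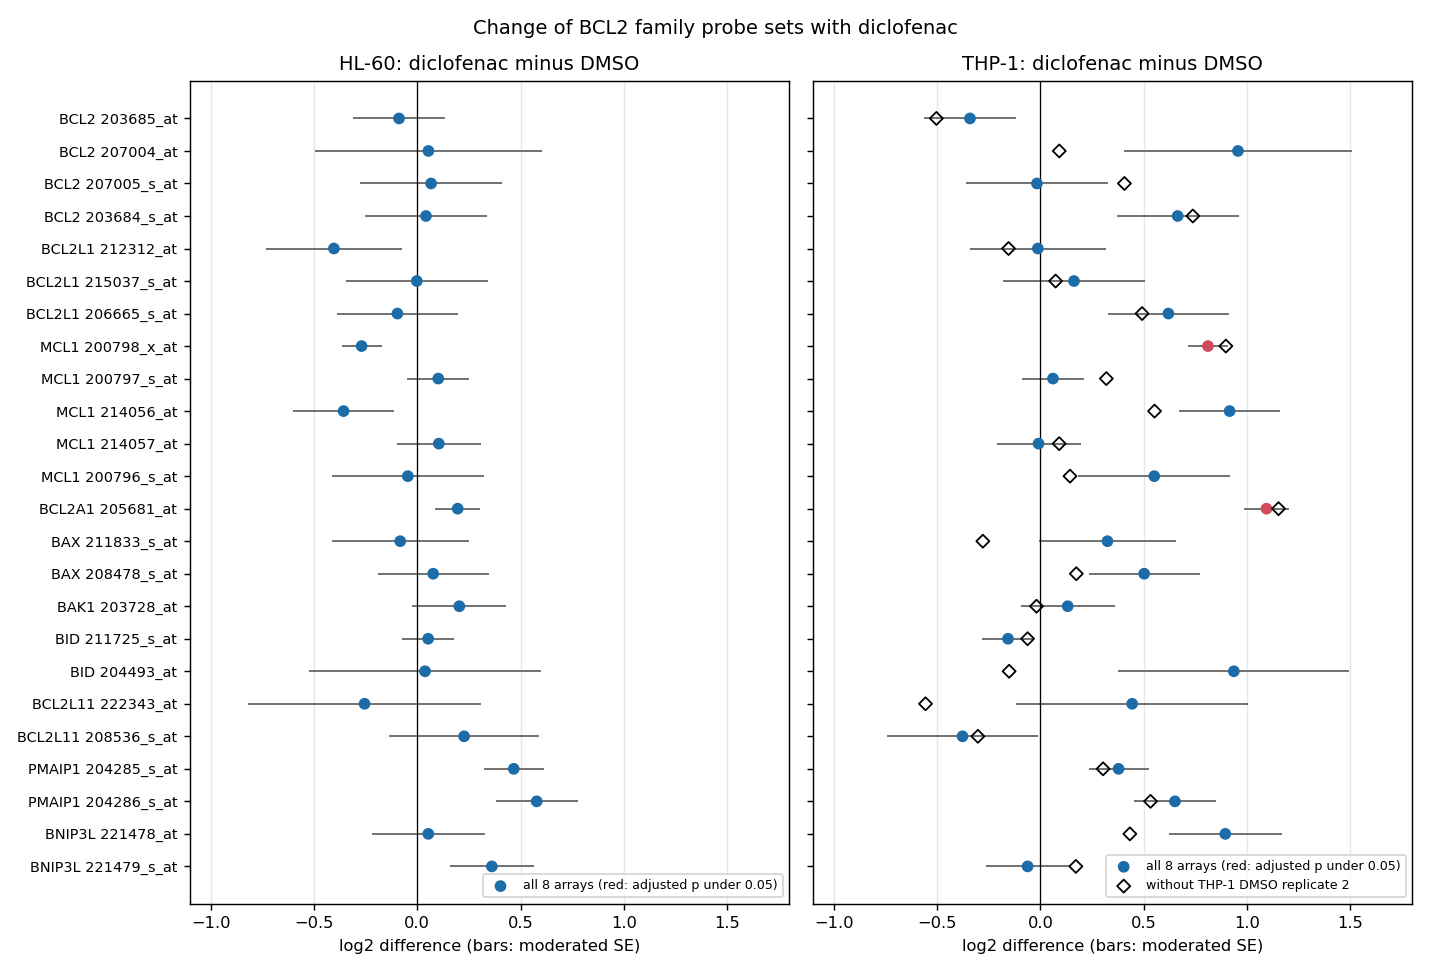
Log2 difference of diclofenac minus DMSO (horizontal axis) for each probe set in HL-60 (left) and THP-1 (right), with moderated SE; red points passed an adjusted p of 0.05 and open diamonds give the value without THP-1 DMSO replicate 2. BCL2A1 (1.09) and MCL1 200798_x_at (0.81) are the red points, and diamonds of BID 204493_at (-0.15), BAX 211833_s_at (-0.28) and BCL2L11 222343_at (-0.56) lie on the other side of 0 from their points.

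BCL2A1 encodes a short-lived anti-apoptotic protein of blood cells and is a known NF-kB target. Its probe set 205681_at had normalized log2 levels of 7.34 and 7.35 in THP-1 with DMSO and of 8.49 and 8.39 with diclofenac. Both diclofenac arrays lay more than 1 log2 unit above both DMSO arrays. The difference was 1.09 ± 0.11 (SE, 2.13-fold, limma adjusted p = 0.018 with 2 arrays in each group), and 1.15 without THP-1 DMSO replicate 2. On the deposited scale the DMSO intensities were 91.5 and 216.4, the second of them below the background of its own array, and the diclofenac intensities were 295.7 and 264.6. Without quantile normalization the difference was 0.76 and was not called (adjusted p = 0.401). The call was lost in 9 of 14 alternatives run for single probe sets (2 other scalings, 2 other offsets, no trend, a replicate block and each of the 8 arrays left out; limma adjusted p between 0.00063 and 0.58). These include leaving out any HL-60 array or either THP-1 diclofenac array, with differences of 1.04 to 1.13. It was also lost when only the arrays of the contrast were fitted. In HL-60 the levels were 12.68 and 12.70 with DMSO and 12.85 and 12.92 with diclofenac. These do not overlap either, but the difference of 0.20 ± 0.11 did not pass (adjusted p = 1.0). The effect was larger in THP-1 by 0.90 ± 0.15, which was not called as a difference between the lines (limma adjusted p = 0.29).

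MCL1 encodes the anti-apoptotic member that binds BAK1 and BCL2L11 and is itself bound by PMAIP1. Its probe set 200798_x_at, a type of probe set that may also bind related transcripts, had levels of 11.44 and 11.59 in THP-1 with DMSO and of 12.37 and 12.28 with diclofenac. The groups did not overlap, and the probe set rose by 0.81 ± 0.10 (1.75-fold, limma adjusted p = 0.028), or by 0.90 (0.026) without THP-1 DMSO replicate 2. This call was likewise lost in 9 of the 14 alternatives and with only the contrast's arrays (limma adjusted p between 0.0021 and 0.62), again including the loss of any HL-60 or THP-1 diclofenac array, with differences of 0.77 to 0.85. In HL-60 its levels were 11.09 and 11.23 with DMSO and 10.93 and 10.86 with diclofenac. Here both diclofenac arrays were the lower ones, with a difference of -0.27 ± 0.10 (limma adjusted p = 0.94, unadjusted 0.023). A second probe set, 214056_at, had the same order of arrays. Its THP-1 levels were 9.60 and 8.85 with DMSO and 10.29 and 10.00 with diclofenac, a difference of 0.92 ± 0.24 (limma adjusted p = 0.30; 0.55 without THP-1 DMSO replicate 2). Its HL-60 levels were 9.38 and 9.34 against 8.99 and 9.02, a difference of -0.36 ± 0.24. Neither contrast of 214056_at passed.

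The other MCL1 probe sets did not share that order in both lines. 200797_s_at had 11.86 and 12.37 in THP-1 with DMSO and 12.17 and 12.19 with diclofenac, so that the DMSO arrays spanned the diclofenac ones and the difference was 0.06 (0.32 without replicate 2). 214057_at had 9.40 and 9.60 against 9.63 and 9.35, overlapping groups with a difference of -0.01 (0.09 without replicate 2). The dimmest, 200796_s_at, had 8.07 and 7.24 against 8.19 and 8.23, so that both diclofenac arrays were the higher ones. Its difference was 0.55, and 0.14 without replicate 2. In HL-60 the 3 differed by 0.10, 0.10 and -0.05. Which transcripts of MCL1 each probe set binds was not used here.

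**Figure D3:**
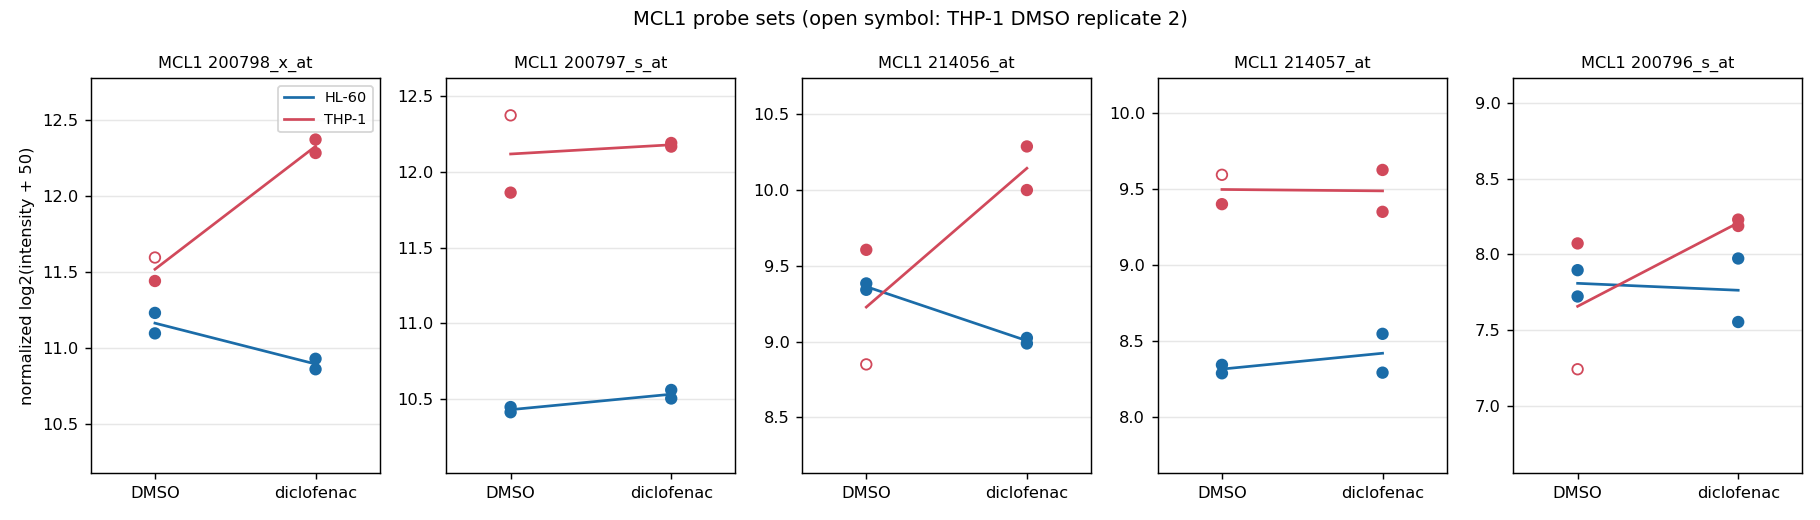
Normalized log2 level of the 5 MCL1 probe sets (vertical axis, each panel spanning the same number of log2 units) with DMSO and diclofenac (horizontal axis), points being arrays and lines joining group means for HL-60 (blue) and THP-1 (red). For 200798_x_at and 214056_at the lines diverge (differences of the effect 1.08 and 1.27), whereas for 200797_s_at and 214057_at they run nearly level at separate heights (effects between -0.01 and 0.10).

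Probe sets of 1 gene were compared by testing, on each array, the brighter minus the dimmer, over 11661 pairs from all genes, of which 24 were pairs of members. For the diclofenac change no pair of any gene was called by limma in HL-60 (0% of pairs, 292 at an unadjusted p under 0.05) or in THP-1 (0%, 1038 unadjusted). Of the members' pairs, 1 in HL-60 and 6 in THP-1 had an unadjusted p under 0.05. In THP-1, MCL1 200798_x_at changed by 0.75 ± 0.15 more than 200797_s_at (limma unadjusted p = 0.001, adjusted p = 0.357; difference 0.58 without replicate 2). In HL-60 the same pair differed by -0.37 ± 0.15 (adjusted p = 0.999). The 2 probe sets of PMAIP1 differed in change by -0.11 ± 0.25 in HL-60 and by -0.27 ± 0.25 in THP-1. Those of BAX differed by -0.16 ± 0.29 and -0.18 ± 0.29, the latter -0.45 without replicate 2. The 2 probe sets of BNIP3L differed by 0.96 ± 0.38 in THP-1, and by 0.26 without replicate 2. The 2 of BID differed by -1.09 ± 0.59 there, and by 0.09 without replicate 2. For the difference of the effect between the lines 0 of the 24 pairs were called (0.00858% of all pairs), the MCL1 pair 200798_x_at and 200797_s_at standing at 1.12 ± 0.21 (limma adjusted p = 0.60).

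BCL2, the founding member of the family, was best measured by 203685_at, above background on all 8 arrays. It had levels of 8.61 and 8.48 in HL-60 with DMSO and of 8.41 and 8.51 with diclofenac, which overlap (-0.09 ± 0.22). In THP-1 it had 9.09 and 8.81 with DMSO and 8.50 and 8.72 with diclofenac. Both diclofenac arrays were lower, with a difference of -0.34 ± 0.22, or of -0.50 without replicate 2, which did not pass (limma adjusted p = 0.54). A second probe set, 207004_at, stood at 0.96 ± 0.55 in THP-1 and at 0.09 without replicate 2, whose level of 6.02 was far below the other DMSO array at 7.76. 203684_s_at and 207005_s_at were not above background on either THP-1 DMSO array.

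BCL2L1, which encodes BCL-XL, had 3 probe sets, none of which was called with diclofenac. 212312_at had levels of 8.57 and 8.29 in HL-60 with DMSO and of 8.15 and 7.91 with diclofenac, lower on both arrays with a difference of -0.40 ± 0.33. In THP-1 it had 7.55 and 7.27 against 7.59 and 7.21, overlapping groups with a difference of -0.01 ± 0.33 (-0.15 without replicate 2). 215037_s_at differed by 0.00 ± 0.34 in HL-60 and by 0.16 ± 0.34 in THP-1 (0.07 without replicate 2). 206665_s_at differed by -0.10 ± 0.29 in HL-60, and was not above background on either THP-1 DMSO array.

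BAX and BAK1 encode the proteins that form the pore. BAX 211833_s_at had levels of 9.40 and 9.31 in HL-60 with DMSO and of 9.28 and 9.26 with diclofenac, a difference of -0.08 ± 0.33. In THP-1 it had 9.40 and 8.21 against 9.14 and 9.12, so that the diclofenac arrays lay between the DMSO arrays (0.32 ± 0.33; -0.28 without replicate 2). BAX 208478_s_at differed by 0.08 ± 0.27 in HL-60 and by 0.50 ± 0.27 in THP-1 (0.17 without replicate 2). BAK1 203728_at had 8.33 and 8.56 in HL-60 with DMSO and 8.75 and 8.56 with diclofenac (0.20 ± 0.23), and 8.73 and 8.43 against 8.72 and 8.71 in THP-1 (0.13 ± 0.23; -0.02 without replicate 2). None of these passed by limma.

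PMAIP1 encodes NOXA, a BH3-only protein that binds MCL1 and BCL2A1 and is known to be made under p53 activation and the integrated stress response. Its probe set 204285_s_at had deposited intensities of 482 and 442.2 in HL-60 with DMSO and of 678.4 and 598 with diclofenac. In THP-1 it had 856.7 and 766.3 with DMSO and 1052.1 and 1118.3 with diclofenac. The groups did not overlap in either line, with differences of 0.47 ± 0.15 in HL-60 and 0.38 ± 0.15 in THP-1 (limma adjusted p = 0.85 and 0.43). Its probe set 204286_s_at had intensities of 247 and 204.6 against 378.3 and 313.9 in HL-60, and of 512.8 and 509 against 844.4 and 740.5 in THP-1. These did not overlap either, with differences of 0.58 ± 0.20 and 0.65 ± 0.20 (limma adjusted p = 0.92 and 0.35), the latter 0.53 without replicate 2. The averages over both lines were 0.42 ± 0.10 and 0.61 ± 0.14, neither of them called (limma adjusted p = 0.397 and 0.332). The 4 differences were above 0 under each of the 14 alternatives tried, between 0.30 and 0.94.

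BID is cut by caspase 8 and carries the death receptor signal to the mitochondrion. BID 211725_s_at had levels of 10.54 and 10.40 in HL-60 with DMSO and of 10.41 and 10.64 with diclofenac, and in THP-1 of 10.82 and 11.01 against 10.81 and 10.71. The differences were 0.05 ± 0.13 and -0.16 ± 0.13, the latter -0.06 without replicate 2. BID 204493_at had 9.68 and 7.52 in THP-1 with DMSO against 9.58 and 9.49, a difference of 0.94 ± 0.56 that was -0.15 without replicate 2. BCL2L11 encodes BIM, which binds every anti-apoptotic member. Its 222343_at differed by -0.26 ± 0.56 in HL-60 and by 0.44 ± 0.56 in THP-1, where replicate 2 with DMSO stood at 6.45 and replicate 1 at 8.40, and where the difference was -0.56 without replicate 2. Its 208536_s_at differed by 0.23 ± 0.36 and -0.38 ± 0.36. No BID or BCL2L11 probe set was called by limma with diclofenac.

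BNIP3L encodes a mitophagy receptor that helps remove mitochondria in maturing red cells. BNIP3L 221478_at had levels of 9.59 and 9.78 in HL-60 with DMSO and of 9.72 and 9.76 with diclofenac (0.05 ± 0.27). In THP-1 it had 9.28 and 8.33 with DMSO and 9.70 and 9.69 with diclofenac, higher on both arrays by 0.89 ± 0.27 (limma adjusted p = 0.35; 0.43 without replicate 2). BNIP3L 221479_s_at differed by 0.36 ± 0.20 in HL-60, where its groups did not overlap, and by -0.06 ± 0.20 in THP-1, which was 0.17 without replicate 2.

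By role, the 13 anti-apoptotic probe sets had a median change of 0.00 in HL-60 and of 0.55 in THP-1, or 0.32 there when DMSO replicate 2 is left out. The 3 of BAX and BAK1 had medians of 0.08 and 0.32 (-0.02 without that array). The 6 BH3-only probe sets had medians of 0.14 and 0.41 (-0.11 without that array), and the 2 of BNIP3L had 0.21 and 0.42 (0.30 without that array). In THP-1 the medians of the pore-forming and BH3-only probe sets thus lie on either side of 0 depending on 1 DMSO array, which also stands apart in background. The median of all probe sets in THP-1 lay at -0.20 for deposited values and at 0.15 with median centring. Relative to it, the members' median under either of those scalings was 0.04 in HL-60. In THP-1, with DMSO replicate 2 included, it was 0.43.

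The second comparison was THP-1 against HL-60 under the same treatment. BCL2A1 was far lower in THP-1, both probe sets of PMAIP1 and several of MCL1 were higher, and BAX, BAK1, BCL2, BCL2L11 and BNIP3L were not called. With DMSO 6 of the 24 probe sets were higher and 2 lower by limma, where 15.3% of all probe sets were called. With diclofenac 6 were higher and 1 lower, where 13% were called. Groups did not overlap for 14 and 16 members, against 49.5% and 58.9% of all probe sets. The members' median difference was -0.14 with DMSO (0.26 without replicate 2; all probe sets 0.03) and 0.09 with diclofenac (all -0.01). Both comparisons use the line difference as labelled, with 1 line per cell type, so line and lineage cannot be told apart.

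**Figure D4:**
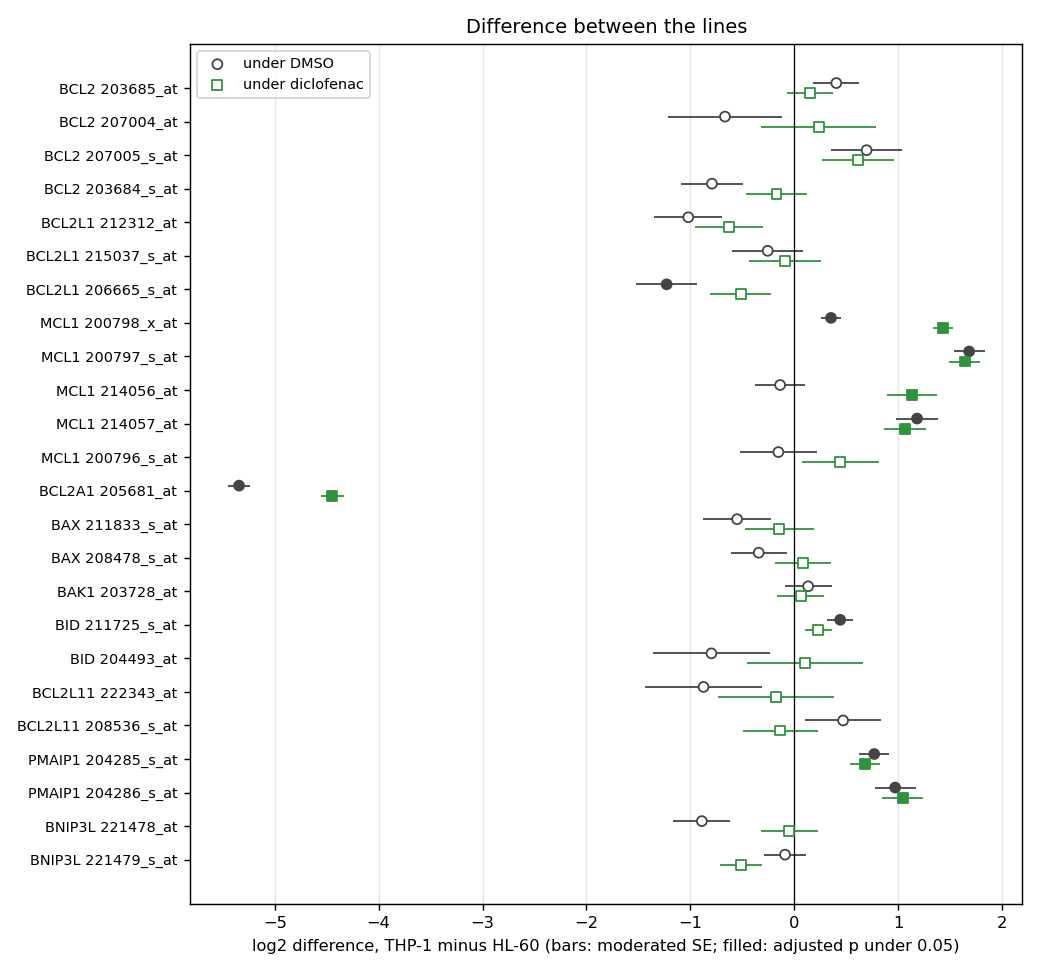
Log2 difference of THP-1 minus HL-60 (horizontal axis) for each probe set with DMSO (circles) and diclofenac (squares), with moderated SE; filled symbols passed an adjusted p of 0.05. BCL2A1 lies at -5.35 and -4.45, while the filled MCL1 and PMAIP1 symbols lie between 0.36 and 1.69.

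BCL2A1 had deposited intensities of 6352 and 6776.9 in HL-60 with DMSO and of 91.5 and 216.4 in THP-1. It was lower in THP-1, with a difference of -5.35 ± 0.11 under DMSO (40.6-fold lower on the normalized scale, limma adjusted p = 2.1e-07), a value that rests on 1 THP-1 array above background and is -5.51 without the other. With diclofenac the intensities were 7343.8 and 8818.8 against 295.7 and 264.6, and the difference was -4.45 ± 0.11 (21.8-fold lower, limma adjusted p = 4.2e-07). Both differences were called under each of the 14 alternatives.

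With DMSO 3 of the 5 MCL1 probe sets were higher in THP-1, by unequal amounts, and 2 were not called. 200797_s_at had intensities of 1337.8 and 1348.3 in HL-60 with DMSO and of 3869.2 and 4124.9 in THP-1, and was higher by 1.69 ± 0.15 (limma adjusted p = 0.00015). 214057_at was higher by 1.18 ± 0.20 (limma adjusted p = 0.0051). 200798_x_at was higher by only 0.36 ± 0.10 (limma adjusted p = 0.041; 0.28 and 0.091 without replicate 2), and lost that call in 11 of 14 alternatives (adjusted p between 0.0095 and 0.99). 214056_at differed by -0.14 ± 0.24 and 200796_s_at by -0.15 ± 0.37, neither of them called, and both turned in sign without replicate 2 (0.25 and 0.28). The spread among them passed the pair test. With DMSO the line difference of 200798_x_at minus that of 200797_s_at was -1.33 ± 0.15 (limma adjusted p = 0.0031; -1.17 and 0.00092 without replicate 2). That of 200797_s_at exceeded that of 214056_at by 1.82 ± 0.35 (limma adjusted p = 0.037; 1.20 and 0.0075 without replicate 2). These were the only 2 of the 24 members' pairs called with DMSO, where 1.33% of all pairs were. With diclofenac 0 of the 24 were called, against 1.02% of all pairs. Without THP-1 DMSO replicate 2, 2 pairs with 200796_s_at were called there, 200797_s_at by 1.20 (limma adjusted p = 0.018) and 200798_x_at by 0.99 (0.046), among 754 of all 11661 pairs. With all 8 arrays and diclofenac, 200798_x_at was higher in THP-1 by 1.44 ± 0.10, 200797_s_at by 1.64 ± 0.15, 214056_at by 1.14 ± 0.24 and 214057_at by 1.07 ± 0.20, all 4 passing, while 200796_s_at stood at 0.44 ± 0.37 and was not called; the calls of 214056_at and 214057_at were lost in 6 and 4 of 14 alternatives (limma adjusted p up to 0.18 and 0.13), among them leaving out either THP-1 diclofenac array or HL-60 diclofenac replicate 1. The pair tests between lines were added after the MCL1 values had been seen.

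PMAIP1 204285_s_at, with the intensities given above, was higher in THP-1 by 0.77 ± 0.15 with DMSO (limma adjusted p = 0.0081). With diclofenac it was higher by 0.68 ± 0.15 (limma adjusted p = 0.016). 204286_s_at was higher in THP-1 by 0.97 ± 0.20 with DMSO (limma adjusted p = 0.012), and was higher by 1.05 ± 0.20 with diclofenac (0.0091). Under DMSO these calls were lost in 2 and 3 of 14 alternatives, including without HL-60 DMSO replicate 2 (0.75 and 0.94, adjusted p = 0.053 and 0.070). Under diclofenac they were lost in 6 and 5, including without any 1 of the 4 diclofenac arrays (differences 0.62 to 1.13, limma adjusted p between 0.055 and 0.158). Both probe sets thus stood in 1 order over the groups, HL-60 with DMSO lowest and THP-1 with diclofenac highest. On 204285_s_at the mean level was 9.44 in HL-60 with diclofenac and 9.75 in THP-1 with DMSO. On 204286_s_at these means were 8.67 and 9.06. This comparison, which differs in both line and treatment, was not tested.

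BCL2L1 206665_s_at was lower in THP-1 with DMSO (limma adjusted p = 0.024), on measured means of 5.99 and 7.22. It was not above background on either of those THP-1 arrays, so the difference is given as at least 1.16-fold lower, from the lowest signal above background. The call was lost in 6 of 14 alternatives (limma adjusted p between 0.008 and 0.165 over all 14), among them leaving out either HL-60 DMSO or either THP-1 diclofenac array. 212312_at differed by -1.02 ± 0.33 (limma adjusted p = 0.074) and 215037_s_at by -0.25 ± 0.34, neither of them called. BID 211725_s_at was higher in THP-1 with DMSO by 0.44 ± 0.13 (limma adjusted p = 0.048), and by 0.36 (0.106) without replicate 2. This call was lost in 13 of 14 alternatives (adjusted p between 0.011 and 0.91). BNIP3L 221479_s_at differed by -0.51 ± 0.20 with diclofenac, not called with all 8 arrays (limma adjusted p = 0.17) but called without THP-1 DMSO replicate 2 (0.0361; between 0.032 and 0.64 over the 14 alternatives).

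Other genes of the pathway were read at 1 probe set per gene. Over all 22215 probe sets, 1001 in HL-60 and 2365 in THP-1 had an unadjusted p under 0.05 with diclofenac. Of 17 further BCL2 family genes 12 were matched, and 0 were called with diclofenac by limma in HL-60 (median -0.03) or THP-1 (median 0.25; 0.04 without THP-1 DMSO replicate 2), with 0 and 3 at an unadjusted p under 0.05. The lowest unadjusted p-values in HL-60 belonged to BNIP2 (-0.19), the neuronal BH3-only gene HRK (-0.47) and BCL2L10 (0.37). In THP-1 they belonged to MOAP1, a partner of BAX (0.51; 0.44 without replicate 2), BCL2L13 (0.87; 0.30) and BNIP1 (-1.09; -0.39). Of 18 mitochondrial partners and released factors 15 were matched, and 0 were called in either line by limma (medians 0.00 and 0.08, the latter -0.06 without THP-1 DMSO replicate 2; 2 and 1 at an unadjusted p under 0.05). Named by the same rule are the channel genes VDAC3 (-0.32) and VDAC1 (0.24) and the cytochrome c gene CYCS (0.20) in HL-60. In THP-1 they are the ADP/ATP carrier genes SLC25A4 (0.43) and SLC25A5 (-0.13), and the protease gene HTRA2 (0.93; 0.05 without replicate 2). Of 27 regulators of these transcripts or proteins 25 were matched, and 0 were called in either line by limma (medians -0.03 and 0.13, the latter 0.06 with that array left out; 1 and 2 at an unadjusted p under 0.05). In HL-60 the stress response factor gene ATF4 stood at 0.71 ± 0.13 (limma adjusted p = 0.45), E2F1 at -0.22 and the MCL1-binding gene TPT1 at 0.10. In THP-1 the kinase gene GSK3B stood at 1.02 (0.36 without replicate 2), E2F1 at -0.23 and HIF1A at 0.22.

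The probe sets most like a member over the 8 arrays are given as a description, without a test. They were found by Pearson correlation among 13601 to 13605 probe sets above background on 4 or more arrays. Differences between the lines, called for 15.3% of all probe sets with DMSO, enter these correlations. How much of the variation was due to line or treatment was not measured. BCL2A1 was nearest to ASAH1, the lysosomal acid ceramidase, on 2 probe sets (r = 0.999 each). MCL1 200798_x_at was nearest to KCNG1 (0.988) and the small GTPase gene RHEB (0.986), and PMAIP1 204285_s_at to ASMTL and AP4S1 (0.989 each). BCL2L1 212312_at was nearest to EDEM3 (0.986) and LMF2 (0.98), and BID 211725_s_at to PPP6R2 and MMP14 (0.975 each).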

How the data were processed

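The authors deposited 1 intensity per probe set and array, on a linear scale. Per the labels' protocols, biotin-labelled cRNA was made from total RNA and hybridised to Affymetrix arrays. The software that made the intensities is not given in the sources used here. Intensities were turned to log2 of the value plus 50 and quantile normalized. Of 22277 probe sets 62 controls were dropped. The platform annotation gave 19064 of the rest 1 symbol, 1043 several and 2108 none. The 4 group means were fitted over all 8 arrays (limma 3.58.1, R 4.3.3, 4 residual and 4.41 prior degrees of freedom, intensity trend), with Benjamini-Hochberg adjustment over 22215 probe sets and a threshold of 0.05.

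The members and lists were chosen with earlier results of these data known. All member probe sets are described. Of each pathway list the called genes, or else the 3 with the lowest unadjusted p per line, are named. Of the marker lists only CTSG was called with diclofenac, in THP-1. The 2 probe sets of single genes most correlated over the arrays are named for the brightest probe set of each called member. Pairs of probe sets of 1 gene were tested by limma on the brighter minus the dimmer. A fold for a group not above background is a bound, computed from the lowest signal above background on each array. Same-numbered arrays deviated with a correlation of 0.00 in HL-60 and -0.01 in THP-1, and no label pairs them, so no block was used. Alternatives were median centring or no scaling in place of quantiles, offsets of 16 and 0, dropping the dimmest 40%, no trend, a replicate block, only the contrast's arrays, _x_at left out and each array left out. Single probe sets were rerun under 14 of these, without the dim filter, the contrast's arrays and the _x_at choice, which gave counts only. The scripts were tested on simulated data. The number of arrays limits the precision. Figures used matplotlib 3.10.9 in Python 3.11.15.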

Additional observations from a re-analysis of the deposited data

Results flagged for a closer look

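For 2 probe sets of MCL1 both diclofenac arrays lay below both DMSO arrays in HL-60 and above both in THP-1, which drew attention to them. Of all 22215 probe sets, 4261 lay lower without overlap in HL-60 with diclofenac and 4459 higher. In THP-1 4140 lay higher and 4644 lower. How many of all probe sets moved in opposite directions in the 2 lines was not counted. For 200798_x_at the changes were -0.27 and 0.81, a difference of 1.08 that the test of the difference between the lines did not call (limma adjusted p = 0.124). For 214056_at they were -0.36 and 0.92, a difference of 1.27 (limma adjusted p = 0.486). The 3 other probe sets of MCL1 did not have this order in both lines, although 200796_s_at was higher on both diclofenac arrays in THP-1. THP-1 DMSO replicate 2, whose background was higher than elsewhere, enters both differences, and its part in them was not tested beyond the values without it, which were 1.17 and 0.92.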

How the results depend on the processing

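No called difference of a member changed sign under any alternative run. In THP-1 the 2 calls with diclofenac became 1 without quantile normalization, 1 without _x_at probe sets, and 1 with a replicate block (BCL2A1 was kept, MCL1 200798_x_at had an adjusted p of 0.060). They became 0 with median centring, without the trend and with only the contrast's arrays. Leaving out 1 array gave 0 to 12, the 12 without THP-1 DMSO replicate 1, 2 without replicate 2 and 0 without any other. In HL-60 the count was 0 throughout. The difference of effects and the THP-1 pairs gained calls of members in some alternatives, most without THP-1 DMSO replicate 1. With DMSO the 8 line differences became 2 with centring, 5 with a replicate block, 2 with only the contrast's arrays and 3 to 17 with 1 array left out. With diclofenac the 7 became 2 with centring, and their number again moved both ways with 1 array left out. The causes were not tested. Of uncalled probe sets, 13 of 24 changed sign in some alternative in HL-60 and 11 of 22 in THP-1. Groups of 2 arrays, and the background of 239 on 1 of them, limit what can be detected.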
